A study of Mus musculus with 4 samples.

Results

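The genes Retnla, Retnlg, Lyz1, Lyz2, Ear2 and Chil3, which encode secreted proteins of myeloid cells, were followed through the cells of the mouse aortic arch. They were 6 of the 31053 features of the count tables, taken by symbol, and were chosen by their summed UMIs across cell types and libraries in these same data, so those levels are given as a description with no test. The aortic arches with their branches and perivascular tissue came from male mice that were 3 months old at the start, live DAPI-negative cells were sorted, and 3′ single-cell RNA sequencing counted unique molecular identifiers (UMIs), each standing for 1 captured transcript. There were 4 libraries, 1 for each condition, and each was a pool of animals, 4 mice for each normocholesterolemic library and 3 for each atherosclerotic one. Atherosclerotic mice had received an injected treatment and a high-fat diet for 21 weeks, while normocholesterolemic mice had received saline and a standard diet. Mice labelled Nrf2Cdh5tKO carried Nrf2flox/flox alleles, from which Cre under the endothelial Cdh5 promoter removes exon 5 of Nrf2 (Nfe2l2), the antioxidant response factor, in endothelium and in a proportion of leukocytes. The controls were Nrf2flox/flox mice, so the floxed alleles were common to all 4 libraries. Where 4 values are given they stand in the order Nrf2flox/flox normocholesterolemic, Nrf2Cdh5tKO normocholesterolemic, Nrf2flox/flox atherosclerotic, Nrf2Cdh5tKO atherosclerotic.

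Resistin-like molecules are small cysteine-rich secreted proteins. Retnla, the resistin-like alpha chain, is the classic product of macrophages exposed to interleukin-4 or interleukin-13, whose receptor signals through Stat6, and Retnlg is its neutrophil relative. Lysozymes cleave the peptidoglycan of bacterial walls; Lyz2 is the form of myeloid cells and Lyz1 is best known from the Paneth cells of the gut. Ear2 belongs to the eosinophil-associated ribonucleases, a rodent branch of the ribonuclease A family. Chil3 folds like a chitinase but lacks the enzyme activity, and is made by neutrophils, monocytes and some alternatively activated macrophages.

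Of 15599 barcodes, 14148 passed the limits on genes and mitochondrial share, between 1020 and 7890 per library, with a median of 9200.5 to 14152.5 UMIs per cell. Classes were gated on marker genes, none of which is 1 of the 6, and are called "-like" because they rest on marker scores. Transcripts of Nfe2l2 were not lower in endothelial-like cells under the Nrf2Cdh5tKO label, at 369 and 360 UMIs per 1000000 UMIs of the class (CPM) against 186 and 181 in the matching Nrf2flox/flox libraries. Where the 3′ reads of Nfe2l2 fall relative to the deleted exon was not examined. These counts are therefore not used to check the label, and libraries are named as labelled. Barcodes of the same sequence occurred in at least 2 libraries 30 times. Because each condition is 1 library, intervals given here cover counting error only and no difference between libraries could be tested.

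Retnla and Retnlg lie side by side on mouse chromosome 16 (GRCm38), Retnla at chr16:48842551-48844461 and Retnlg at chr16:48872621-48874496, both on the plus strand and with 4 exons each. Their promoters resembled each other and are shown because the pair of genes was read in different cells. In the 250 bases before each RefSeq gene start (GRCm38.p6), the best local alignment matched at 135 of 177 positions (76.3%). Capitals mark matches, on either strand, to the Stat6 motif (TTC and GAA with 4 bases between), the C/EBP motif TTNNGCAA, the PU.1 motif GAGGAA and the TATA box TATAAA, where N is any base.
Retnla, chr16:48842359-48842608, plus strand: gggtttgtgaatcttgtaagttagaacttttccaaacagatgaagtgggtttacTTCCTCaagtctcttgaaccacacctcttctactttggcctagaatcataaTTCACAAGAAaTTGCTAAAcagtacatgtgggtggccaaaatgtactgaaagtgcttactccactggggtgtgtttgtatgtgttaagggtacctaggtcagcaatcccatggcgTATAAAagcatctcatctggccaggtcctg
Retnlg, chr16:48872358-48872607, plus strand: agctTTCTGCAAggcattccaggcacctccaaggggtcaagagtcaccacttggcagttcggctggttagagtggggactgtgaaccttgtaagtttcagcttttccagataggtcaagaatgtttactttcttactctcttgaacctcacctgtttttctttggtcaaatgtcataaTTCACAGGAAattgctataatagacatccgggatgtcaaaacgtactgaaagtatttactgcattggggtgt
The Stat6 motif was present in both, 145 to 136 bases before the start in Retnla and 72 to 63 bases before it in Retnlg, and in 5.85% of 32851 promoters of this length. A C/EBP motif was also present in both (9.56% of all promoters), but at different places. In Retnla it was on the opposite strand, 134 to 127 bases before the start, and followed the Stat6 motif with 1 base between them. In Retnlg it was on the same strand, 246 to 239 bases before the start, far upstream of the Stat6 motif. The PU.1 motif (23.3% of all promoters) and the TATA box (12.4%) were found in the Retnla window and not in that of Retnlg, which, relative to the shared Stat6 motif, ends before the stretch that holds the TATA box in Retnla. A match of letters is a description of this window and not a site of binding.

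Lyz1 and Lyz2 are tandem copies on the minus strand of chromosome 10, Lyz1 at chr10:117287797-117292868 and Lyz2 at chr10:117277331-117282321, each with 4 exons and 447 coding bases. Over those bases they were identical at 425 positions (95.1%). The first 90 coding bases are shown, since reads of the pair could be confused; capitals mark the 7 bases that differ.
Lyz1, coding bases 1 to 90: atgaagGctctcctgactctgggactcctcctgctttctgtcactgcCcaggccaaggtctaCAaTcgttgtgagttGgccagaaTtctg
Lyz2, coding bases 1 to 90: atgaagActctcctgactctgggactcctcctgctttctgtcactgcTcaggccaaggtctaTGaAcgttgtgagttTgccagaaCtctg
In the last 500 bases of the transcripts, where 3′ reads fall, 14 of 410 windows of 91 bases (3.41%) were common to Lyz1 and Lyz2. Such windows were 38 of 410 for Ear2 (shared with Ear1, Ear10 and Ear-ps2), 36 of 410 for Chil3 (shared with Chil4) and 0 for Retnla and Retnlg. Ear2 lies at chr14:44102654-44103534 on the plus strand with 2 exons, and Chil3 at chr3:106147554-106167564 on the minus strand with 11 exons.

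Retnla was foremost a transcript of cavity macrophage-like cells, the Fn1, Lpl, Tnip3, Clec4b1, Cd226 and Dcstamp-positive phagocytes gated on those genes and named after macrophages of serous cavities. The 187 cells of this class, out of 14148, held 65.6% of the 119578 UMIs of Retnla. By library they held 58850 of 88305, 1977 of 4455, 5445 of 8795 and 12154 of 18023. The level there was 23643 CPM (95% Poisson interval 23453 to 23835), 7668 (7334 to 8014), 17904 (17432 to 18386) and 18982 (18646 to 19323). The library labelled Nrf2Cdh5tKO normocholesterolemic lay well under the other three, which spanned 17904 to 23643. The class is small outside the Nrf2flox/flox normocholesterolemic library, with 133, 14, 12 and 28 cells.

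Lyve1+ resident macrophage-like cells, gated on Lyve1, Folr2, Maf, Cd209f, Cd163 and Timd4, came next among the named classes, at 4025, 1582, 1943 and 3033 CPM, and held 12.5% of the UMIs. Each of these values lay under every cavity macrophage-like value. Phagocytes that reached no sub-class, of which 192 of 342 lay within 0.05 of a gate, ranged from 29.5 to 6308. The 6308 came from the Nrf2flox/flox atherosclerotic library, where a single cell held 2203 of 2224 UMIs. In the library labelled Nrf2Cdh5tKO atherosclerotic a single cell held 1561 of 1881. Proinflammatory macrophage-like cells had 1800 CPM in the Nrf2flox/flox normocholesterolemic library and 34.9, 32.9 and 88.4 in the others. Classical monocyte-like cells, at 50.4, 8.17, 24.4 and 11.4, were at or under the level of stromal cells of the same library in 3 of 4 libraries and 1.05 times it in the other, and such levels are read here as background. Neutrophil-like cells, at 93.1, 33.2, 44.6 and 74.5, were between 0.763 and 2.00 times the stromal level, with intervals that included equality in each library. In the Nrf2flox/flox normocholesterolemic library the stromal level was 122, and 42.1 without 42 stromal cells of 5 or more UMIs. The lower value lay within the Poisson interval of its classical monocyte-like cells (33.2 to 73.3) and under that of its neutrophil-like cells (69.1 to 123).

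**Figure D1:**
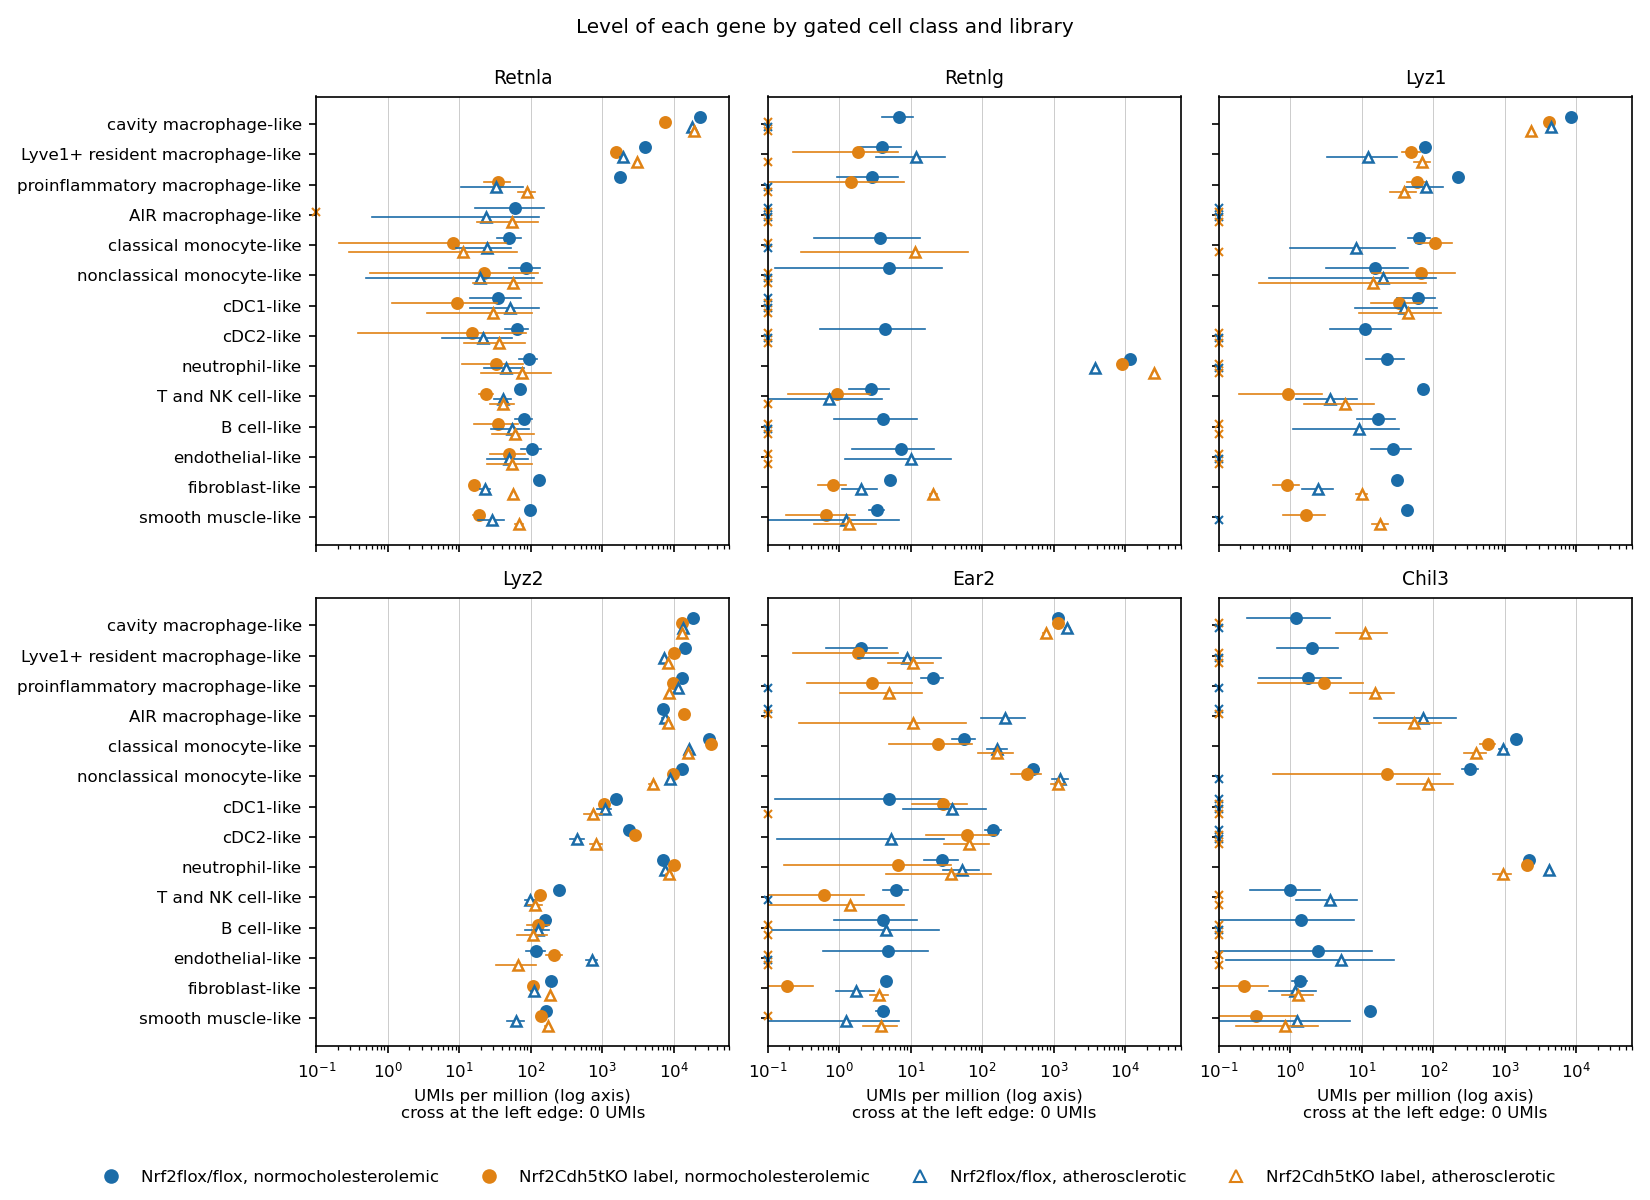
Level of each of the 6 genes in 14 gated classes, in CPM on a log axis; each point is 1 library, lines are 95% Poisson intervals, and crosses at the left edge mark 0 UMIs. By the median over libraries Retnla, Lyz1 and Ear2 were highest in cavity macrophage-like cells, though Ear2 overlapped with nonclassical monocyte-like cells, Retnlg and Chil3 in neutrophil-like cells and Lyz2 in classical monocyte-like cells; fibroblast-like and smooth muscle-like rows give the stromal reading.

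From cell to cell, Retnla was spread over nearly all cavity macrophage-like cells but was confined to a minority of the Lyve1+ class. Of 187 cavity macrophage-like cells, 170 (90.9%) had at least 1000 CPM, and the median cell had 13413, with a range from the 10th to the 90th percentile of 1223 to 47845. Of 574 Lyve1+ resident macrophage-like cells, 130 (22.6%) reached 1000 CPM, the median cell had 102, and the 58 highest cells held 86.9% of the UMIs. In proinflammatory macrophage-like cells it was 10 of 307, of which 9 were in the Nrf2flox/flox normocholesterolemic library. Thinned to 2000 UMIs per cell, Retnla was detected in 91.9% of 185 cavity macrophage-like cells (exact 95% interval 87.0 to 95.4), 36.7% of 562 Lyve1+ cells (32.7 to 40.8) and 6.85% of 9660 stromal cells (6.36 to 7.38). Unthinned shares were 95.7%, 56.3% and 33.0% at median depths of 19232, 7699 and 13387 UMIs.

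**Figure D2:**
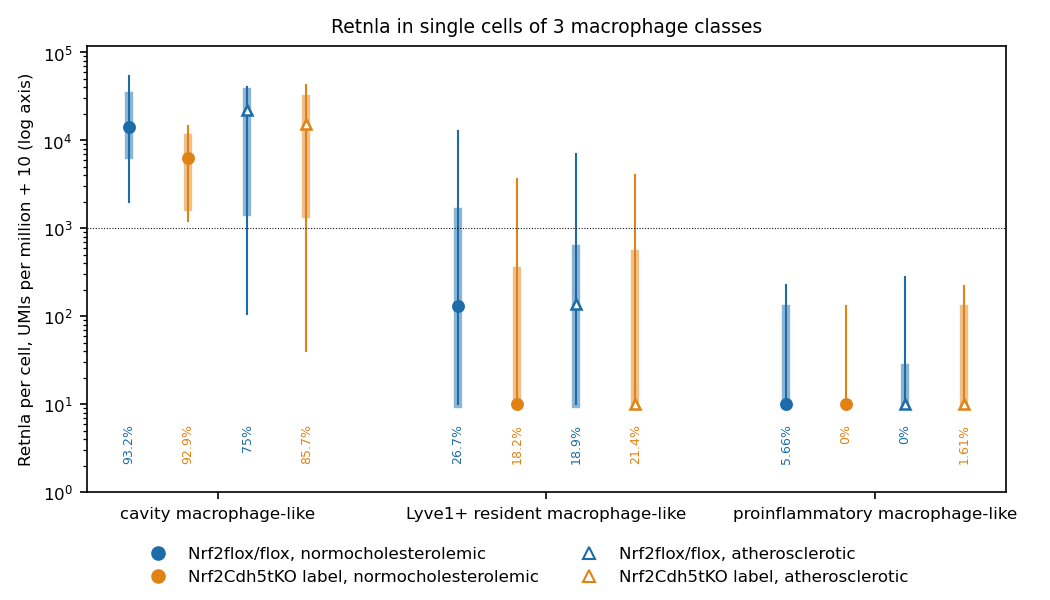
Retnla per cell in 3 macrophage classes, in CPM plus 10 on a log axis; points are medians over cells, thick bars the 25th to 75th and thin lines the 10th to 90th percentile, and the printed shares are cells at or above 1000 CPM (dotted line). Between 75% and 93.2% of cavity macrophage-like cells passed that line, against 18.2% to 26.7% of Lyve1+ and 0% to 5.66% of proinflammatory cells.

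The Lyve1+ cells with and without high Retnla were set side by side at 1000 CPM, a line chosen after the values were seen. Ccr2, the chemokine receptor of monocyte-derived cells, was at 216 CPM in the 130 high cells and 21.1 in the 444 others. By library it was 60.5, 271, 699 and 528 in the high cells against 10.5, 29.3, 7.29 and 46.3 in the others, higher in 4 of 4. The lectins Clec10a (664 against 331) and Mgl2 (1300 against 909) and the MHC class II gene H2-Ab1 (4060 against 2367) were also higher in the high cells. The residency markers Timd4 (244 against 191), Folr2 (1399 against 1178) and Cd163 (1034 against 900), and the mannose receptor Mrc1 (2184 against 2319), differed less between them. Timd4, Folr2 and Cd163 are genes of the gate, so their presence in both sets of cells follows from it. Scrublet called none of the 130 high cells and 3 of the 444 others as doublets. The cavity class, split at the same line with libraries summed, did not share these differences. Its 170 high cells were lower than its 17 others in Clec10a (66.4 against 151), Mgl2 (307 against 1249) and H2-Ab1 (8603 against 10670). Ccr2 was at 784 in both. Mgl2 went the other way in the library labelled Nrf2Cdh5tKO normocholesterolemic, which had 1 of the 17.

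Lyz1 was found mostly in cavity macrophage-like cells, which held 81.9% of its 30225 UMIs. By library they held 20815 of 25276, 1073 of 1275, 1346 of 1450 and 1506 of 2224. In the last library phagocytes of no sub-class held 293, of which 173 were in a single cell. Its level there was 8363 CPM (95% Poisson interval 8249 to 8477), 4162 (3916 to 4418), 4426 (4193 to 4669) and 2352 (2235 to 2474). The Nrf2flox/flox normocholesterolemic library was the highest and the library labelled Nrf2Cdh5tKO atherosclerotic the lowest, and the 2 between them had intervals that overlapped. In other macrophage classes the gene was low: 75.7, 49.1, 12 and 70.3 in Lyve1+ cells and 220, 59.7, 79.0 and 38.4 in proinflammatory cells. Of the 187 cavity macrophage-like cells, 137 had at least 1000 CPM, but in the Nrf2flox/flox atherosclerotic library the top 2 of 12 cells held 87.0% of the UMIs. In the T and NK-like cells of the Nrf2flox/flox normocholesterolemic library 150 of 282 UMIs of Lyz1 came from 1 cell.

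Ear2, the ribonuclease, had 2 places of high level. Cavity macrophage-like cells had 1145, 1144, 1562 and 776 CPM and held 74.7% of the 5513 UMIs. Nonclassical monocyte-like cells, gated on Treml4, Cd300e and other genes of patrolling monocytes, had 517, 428, 1225 and 1167, on 19 to 103 UMIs per library. The 2 classes overlapped in range, and nonclassical monocyte-like cells were the higher of them in the library labelled Nrf2Cdh5tKO atherosclerotic. There, however, a single nonclassical monocyte-like cell held 33 of the 82 UMIs of its class. Classical monocyte-like cells were at 56.0, 24.5, 163 and 160 and Lyve1+ cells at 2.01, 1.85, 9.01 and 10.7, on 2 to 9 UMIs per library, beside 4.38, 0.152, 1.68 and 3.71 in stroma. Thinned to 2000 UMIs, Ear2 was found in 76.8% of cavity macrophage-like cells, 73.5% of nonclassical monocyte-like cells and 0.404% of stromal cells.

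Eosinophils are another known source of Ear family ribonucleases. In cavity macrophage-like cells 1 of 5 eosinophil markers had any UMI, the summed list was at 0 to 4.69 CPM across libraries, and Ccr3, Prg2, Epx and Il5ra were at 0. For alveolar macrophages it was 2 of 6 markers, also at 0 to 4.69, with Marco, Krt79, Car4 and Fabp1 at 0. The 6 large cavity macrophage markers summed to 15.3, 15.5, 3.29 and 9.37 CPM in the class. In all phagocyte-like cells they were at 46.5, 12.8, 176 and 156, and over all cells at 195 to 320. The class was thus lower in these markers than all phagocyte-like cells except in the library labelled Nrf2Cdh5tKO normocholesterolemic. The 5 division genes summed to 215, 27.2, 737 and 253 CPM, so the cavity macrophage-like cells of the Nrf2flox/flox atherosclerotic library had the most; their part in the levels was not tested.

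Retnla, Lyz1 and Ear2 tended to be found in the same cells within the cavity class. Thinned to 2000 UMIs, Lyz1 was detected in 82.9% of the 170 cells with Retnla and in 20% of the 15 without it. For Ear2 the shares were 80% and 40%. The libraries were added together for these shares, and few cells lacked Retnla. Cavity macrophage-like cells under 1000 CPM of Retnla, 17 in all, also had a lower median score for the cavity markers, 0.542 against 0.679. The part of this in the shares was not tested. Over all 1603 phagocytes of that depth, Ear2 was detected in 50% of the 254 cells with Lyz1 and 7.93% of those without, a contrast that also holds the difference between classes.

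Lyz2, the myeloid lysozyme, was present in every phagocyte class and in neutrophils. Classical monocyte-like cells, gated on Ly6c2, Plac8 and other genes of blood monocytes, had 31229, 33675, 16453 and 15934 CPM. Both normocholesterolemic libraries lay above both atherosclerotic ones. Cavity macrophage-like cells had 18739, 13102, 13528 and 12888, a range that overlapped those of other macrophage and monocyte classes. Medians over libraries of 10651, 9316, 9248, 8101 and 7989 in proinflammatory, nonclassical monocyte, Lyve1+, neutrophil and AIR macrophage-like cells had overlapping ranges too and cannot be put in order. Dendritic classes were lower, at 447 to 2872 in cDC2-like and 746 to 1542 in cDC1-like cells, and all 187 cavity macrophage-like cells had at least 1000 CPM. Its 267274 UMIs were spread over many classes, the largest share being the 23.3% of the cavity class.

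Retnlg was almost wholly neutrophil RNA: 151 neutrophil-like cells held 88.8% of its 11185 UMIs. Its level there was 11651 CPM (95% Poisson interval 11364 to 11943), 9006 (8534 to 9498), 3829 (3588 to 4081) and 25545 (24211 to 26933). The library labelled Nrf2Cdh5tKO atherosclerotic was the highest, on 8 cells, and the Nrf2flox/flox atherosclerotic library the lowest, on 21. In cavity macrophage-like cells, where its neighbour Retnla was highest, Retnlg had 17 UMIs in the first library and 0 in the other three, where the upper bound of the 95% Poisson interval was 14.3, 12.1 and 5.76 CPM. Of the 151 neutrophil-like cells 108 (71.5%) had at least 1000 CPM.

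Chil3, the chitinase-like lectin, was highest in neutrophil-like cells too, at 2155 CPM (95% Poisson interval 2033 to 2283), 2010 (1790 to 2249), 4149 (3898 to 4411) and 931 (691 to 1227). That class held 55.4% of its 4572 UMIs, and by library 1158 of 2629, 303 of 427, 1024 of 1341 and 50 of 175. Here the order of the atherosclerotic libraries was the reverse of that of Retnlg: Nrf2flox/flox had the most Chil3 and the least Retnlg, and the library labelled Nrf2Cdh5tKO the least Chil3 and the most Retnlg. Classical monocyte-like cells were the other source, at 1428, 580, 932 and 389 CPM with 24% of the UMIs, and nonclassical monocyte-like cells had 326, 22.5, 0 and 85.4. In cavity macrophage-like cells, rich in Retnla, Chil3 had 3, 0, 0 and 7 UMIs.

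Within the neutrophils, cells with much Chil3 had less Retnlg than the others, although many had both. Only 22 of 151 neutrophil-like cells had at least 1000 CPM of Chil3 (9 of 104, 4 of 18, 7 of 21 and 2 of 8), and the 16 highest cells held 90.8% of its neutrophil UMIs. Split at that line, which was chosen after the values were seen, Retnlg was at 2453 CPM in the 22 Chil3-high cells and 16798 in the 129 others. It was lower in the Chil3-high cells in 4 of 4 libraries, at 2231, 1241, 736 and 22408 against 15426, 20579, 16057 and 28106. The gap was small in the library labelled Nrf2Cdh5tKO atherosclerotic, which had 2 such cells. Thinned to 2000 UMIs, Retnlg was found in 55.6% of 27 cells with Chil3 and 90.3% of 103 without.

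The granule and maturation genes also differed between the same cells. Camp (53834 against 2231 CPM), Ngp (44514 against 3123), Ltf (10301 against 989) and Lcn2 (15360 against 3200), secondary granule genes of developing neutrophils, were higher in Chil3-high cells. The primary granule genes Elane (942 against 1020), Mpo (299 against 388), Prtn3 (869 against 904) and Ctsg (17.2 against 115) were not in the summed libraries, but they turned by library. Elane was at 6.51 against 1390 in the Nrf2flox/flox normocholesterolemic library, 2970 against 0 in the labelled normocholesterolemic one, 858 against 20.1 in the Nrf2flox/flox atherosclerotic one and 0 in both sets of cells in the last. Prtn3 was at 26.0 against 1233, 2360 against 0, 949 against 0, and 0 in both. Mpo and Ctsg had the same directions as Prtn3 in each library. Thus these genes were lower in the Chil3-high cells of the first library only. Lyz2 was higher in Chil3-high cells, at 12560 against 3566. The recruitment receptor Cxcr2 (81.7 against 1119), the cytokine Il1b (58.1 against 8197), and the granule metalloproteinases Mmp8 (507 against 1343) and Mmp9 (396 against 1221) were lower, except that both metalloproteinases were higher in the 2 Chil3-high cells of the library labelled Nrf2Cdh5tKO atherosclerotic. The 5 division genes summed to 1329 against 53.5 CPM, and by library to 846, 1319, 1873 and 0 in the Chil3-high cells. Chil3-high cells also carried more RNA, a median of 18973 UMIs against 3287, so they weigh more in a summed level than their number.

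**Figure D3:**
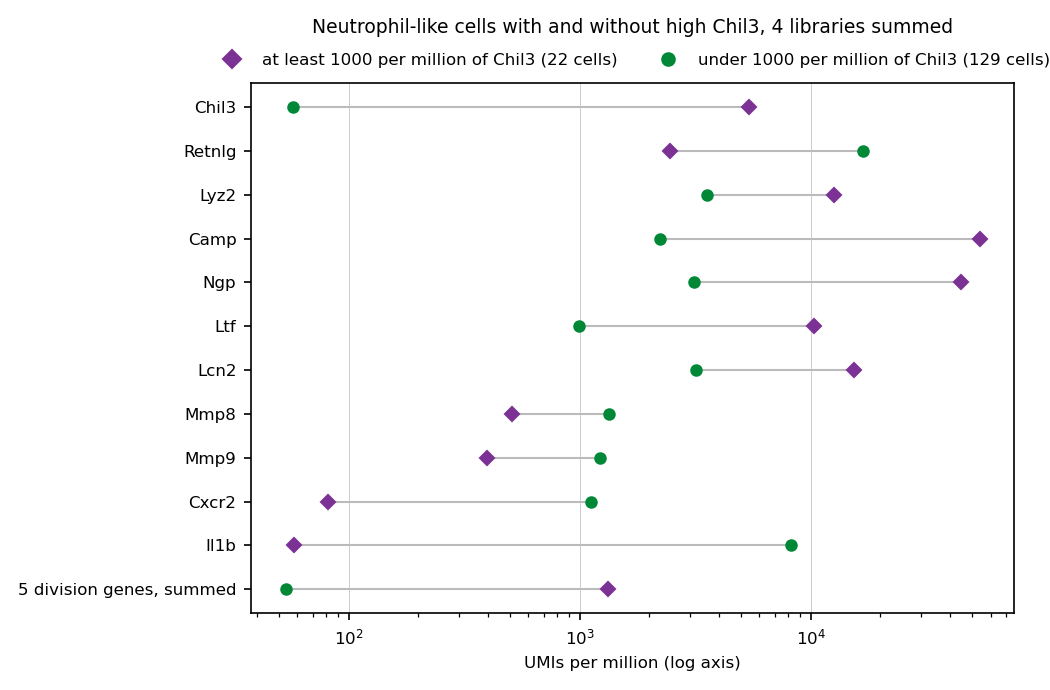
Summed levels in CPM on a log axis in neutrophil-like cells with at least 1000 CPM of Chil3 (22 cells, diamonds) and under it (129 cells, circles), the 4 libraries added together. Retnlg, Cxcr2 and Il1b sat to the left in Chil3-high cells, and Lyz2, Camp, Ngp, Ltf, Lcn2 and the division genes to the right.

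Stromal cells, fibroblast-like and smooth muscle-like together, were taken as a reading of free RNA, since they are not known as a main source of these proteins. Retnla there was 122, 16.5, 23.3 and 58.9 CPM, Lyz2 182, 113, 105 and 184, Lyz1 34.4, 1.03, 2.20 and 11.7, and Retnlg 4.64, 0.791, 1.94 and 16.9. The level in the highest class over this reading differed widely between libraries. It was 194 to 769-fold (median 393) for Retnla, 1516 to 11386-fold (2241) for Retnlg, 202 to 4024-fold (1127) for Lyz1, 86.8 to 298-fold (164) for Lyz2, 209 to 7522-fold (595) for Ear2 and 448 to 8257-fold (2169) for Chil3. The highest values for all but Retnla came from the library labelled Nrf2Cdh5tKO normocholesterolemic, where stroma held 5 to 34 UMIs of Retnlg, Lyz1, Ear2 and Chil3. All 6 were past 2-fold over stroma in their highest class in all 4 libraries. The genes were chosen by their levels across cell types, and each class as that of the highest level, so this count is no evidence. The shares of all genes that follow are each for 1 class fixed for every gene, and so are not a like comparison. Of all genes measured, 12%, 13.3%, 11.2% and 12.1% were past 2-fold over stroma in cavity macrophage-like cells, 13.5%, 12.1%, 9.42% and 10.4% in neutrophil-like cells and 13.9%, 14%, 13.3% and 15.3% in classical monocyte-like cells.

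The stromal reading was not spread evenly over cells. In the Nrf2flox/flox normocholesterolemic library 61 cells, the top 1% of 6028, held 66.7% of the 9407 stromal UMIs of Retnla, and 39.3% of cells had a UMI where an even (Poisson) spread would give 72.2%. Without the 42 cells that had 5 or more UMIs the level was 42.1 CPM in place of 122, and the other libraries stood at 16.3, 23.3 and 31.4. Over all libraries 52 stromal cells had 5 or more UMIs of Retnla; 46 of them also had 5 or more of Lyz2, 11 were called by Scrublet, and their phagocyte markers summed to 1444 CPM against 79.4 in all stromal cells. For Chil3, 284 of 371 stromal UMIs of that library came from a single smooth muscle-like cell, which also held 590 UMIs of Lyz2. For Retnlg in the library labelled Nrf2Cdh5tKO atherosclerotic, 3 of 1642 cells took the level from 0.916 to 16.9. Whether such cells are joined droplets was not tested.

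**Figure D4:**
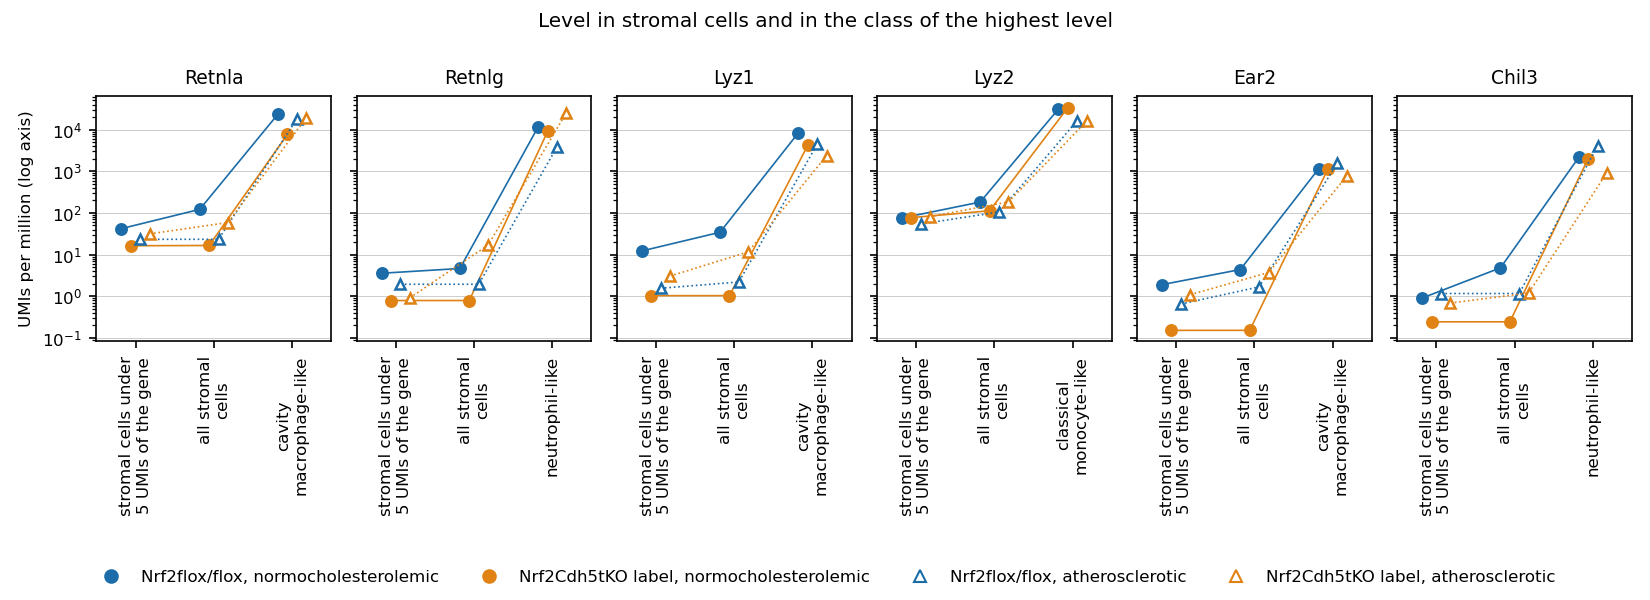
Level of each gene in stromal cells with fewer than 5 UMIs of that gene, in all stromal cells and in the class where it was highest, in CPM on a log axis; each line is 1 library. Without the few stromal cells of 5 or more UMIs, Retnla in the Nrf2flox/flox normocholesterolemic library dropped from 122 to 42.1 and Retnlg in the library labelled Nrf2Cdh5tKO atherosclerotic from 16.9 to 0.916.

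The first comparison between libraries set the Nrf2Cdh5tKO label against Nrf2flox/flox within a diet. Among normocholesterolemic libraries, 5 of the 6 genes were at least 2-fold lower under the label in mononuclear phagocyte-like cells as a whole, where 2.29% of 9627 genes with 50 or more UMIs were. Log2 ratios were −2.71 (95% interval −2.76 to −2.66) for Retnla, −2.52 (−2.61 to −2.44) for Lyz1, −1.59 (−1.75 to −1.43) for Ear2, −1.32 (−1.62 to −1.04) for Chil3 and −1.28 (−2.80 to −0.05) for Retnlg, on 52 UMIs. Retnlg in phagocytes was at the stromal level, 4.55 against 4.64 CPM in the Nrf2flox/flox library, and its ratio is read here as background. Lyz2 was at −0.50, and the median of all genes at 0.22. Since the 6 genes were chosen with such values in view, the count is no evidence about the label.

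The mix of phagocytes also differed between these libraries. Cavity macrophage-like cells were 133 of 840 phagocytes in the Nrf2flox/flox and 14 of 345 in the labelled library. Within the cavity class Ear2 was level at −0.00 (−0.18 to 0.17), while Retnla was at −1.62 (−1.69 to −1.56), Lyz1 at −1.01 (−1.10 to −0.92) and Lyz2 at −0.52 (−0.57 to −0.47), against 5.35% of 4931 genes at least 2-fold lower. If the labelled library had kept its own levels but had the class makeup of the Nrf2flox/flox library, Retnla in phagocytes would be 2290 CPM instead of 1169, against 7647 measured in Nrf2flox/flox. For Ear2 the same step gave 301 instead of 109, against 328, for Lyz1 1060 instead of 379, against 2179, and for Chil3 42.1 instead of 35.0, against 87.7. The cause of these gaps was not tested. In Lyve1+ cells, a class well filled in both (154 and 255 cells), Retnla was at −1.35 (−1.42 to −1.27), where 3.2% of 6532 genes were at least 2-fold lower. These cells differed in quality too, with a median of 6248 UMIs and a mitochondrial share of 3.82% under the label against 9565 and 2.10%. All phagocyte-like cells had 8134 and 3.08% against 11072 and 1.97%, while stroma was deeper under the label (16418 against 13100.5 UMIs). The part of this in the ratios was not tested. In the stroma of the same libraries Retnla was at −2.88 and Lyz1 at −5.05, ratios enlarged by a few stromal cells of the Nrf2flox/flox library. Without cells of 5 or more UMIs of the gene, Retnla was 42.1 CPM in Nrf2flox/flox and 16.3 under the label. Lyz1 was then 12.2 and 1.03, so less of both was still read in stromal cells under the label. Fewer cells with the transcript and less of it per cell were both present: in the Lyve1+ class 26.7% and 18.2% of cells had at least 1000 CPM of Retnla, and in the cavity class, where 93.2% and 92.9% did, the median cell had 14126 and 6318.

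Among atherosclerotic libraries the gap in Retnla was not seen. The log2 ratio was 0.21 (0.17 to 0.25) in phagocytes, 0.08 (0.04 to 0.13) in cavity macrophage-like cells and 0.64 (0.52 to 0.77) in Lyve1+ cells. Chil3 was lower under the label in phagocytes, at −2.30 (−2.64 to −1.97), where 1.74% of 7352 genes were at least 2-fold lower, and in classical monocyte-like cells, at −1.26 (−1.83 to −0.74) on 34 and 229 UMIs. The classical monocyte ratio of the normocholesterolemic pair, −1.30 (−1.67 to −0.95), had the same direction. In the Nrf2flox/flox atherosclerotic library, however, a single classical monocyte-like cell held 128 of the 229 UMIs. That class was 19 of 161 phagocytes there and 10 of 305 under the label. With the Nrf2flox/flox makeup and its own levels, the labelled library would have 78.9 CPM of Chil3 in phagocytes instead of 33.8. The Nrf2flox/flox library had 167. The part of that cell and of the makeup in these ratios was not tested. Lyz1 and Ear2 in the cavity class were at −0.91 and −1.01. Retnlg in neutrophil-like cells was at 2.74 and Chil3 at −2.16, in a class where 36.8% of 652 genes were past 2-fold either way on 8 and 21 cells.

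The second comparison set atherosclerotic against normocholesterolemic mice within a label; the injection, the diet and the library cannot be told apart in it. The Nrf2flox/flox normocholesterolemic library served in 2 comparisons, 1 of the label and 1 of the diet, and so did each other library, so the 4 ratios of a gene are not independent. Lyz2 in classical monocyte-like cells was lower in atherosclerotic libraries under both labels, at −0.92 (−0.97 to −0.87) and −1.08 (−1.17 to −0.99), with 3.94% of 2208 and 3.93% of 611 genes at least 2-fold lower. Ear2 in nonclassical monocyte-like cells was higher under both, at 1.24 (0.77 to 1.71) and 1.45 (0.71 to 2.25), on 19 to 103 UMIs, where 5.01% of 778 and 2.54% of 354 genes were at least 2-fold higher. In the library labelled Nrf2Cdh5tKO atherosclerotic, however, a single cell held 33 of the 82 UMIs. In the one labelled Nrf2Cdh5tKO normocholesterolemic a single cell held 8 of 19. The part of these cells in the ratio was not tested. Lyz1 in the cavity class was lower under both labels, at −0.92 and −0.82.

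Retnla went opposite ways under the 2 labels. In the cavity class it was at −0.40 (−0.44 to −0.36) in Nrf2flox/flox and 1.31 (1.24 to 1.38) under Nrf2Cdh5tKO, and in Lyve1+ cells at −1.05 (−1.17 to −0.94) and 0.94 (0.85 to 1.03). These 4 ratios turn on the same pair of normocholesterolemic libraries, the highest and the lowest for Retnla in either class. In neutrophil-like cells Retnlg was at −1.61 and 1.5 and Chil3 at 0.94 and −1.11. Without the 22 Chil3-high cells the Retnlg ratios were 0.06 (−0.05 to 0.16) and 0.45 (0.32 to 0.58), and under the label 0.42 and 0.81 in place of −0.37 and 2.74. The part of these cells in the ratios was not tested. In the class of its highest level, at least 2-fold was reached by 2 genes for the label among normocholesterolemic libraries, 3 among atherosclerotic ones, and 1 and 4 for the diet in Nrf2flox/flox and under Nrf2Cdh5tKO. Among all genes, in the same order of comparisons, 12.7%, 4.75%, 10.8% and 9.71% were past 2-fold either way in cavity macrophage-like cells, 14.3%, 36.8%, 26.3% and 26.8% in neutrophil-like cells and 10.7%, 10%, 7.97% and 7.36% in classical monocyte-like cells.

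**Figure D5:**
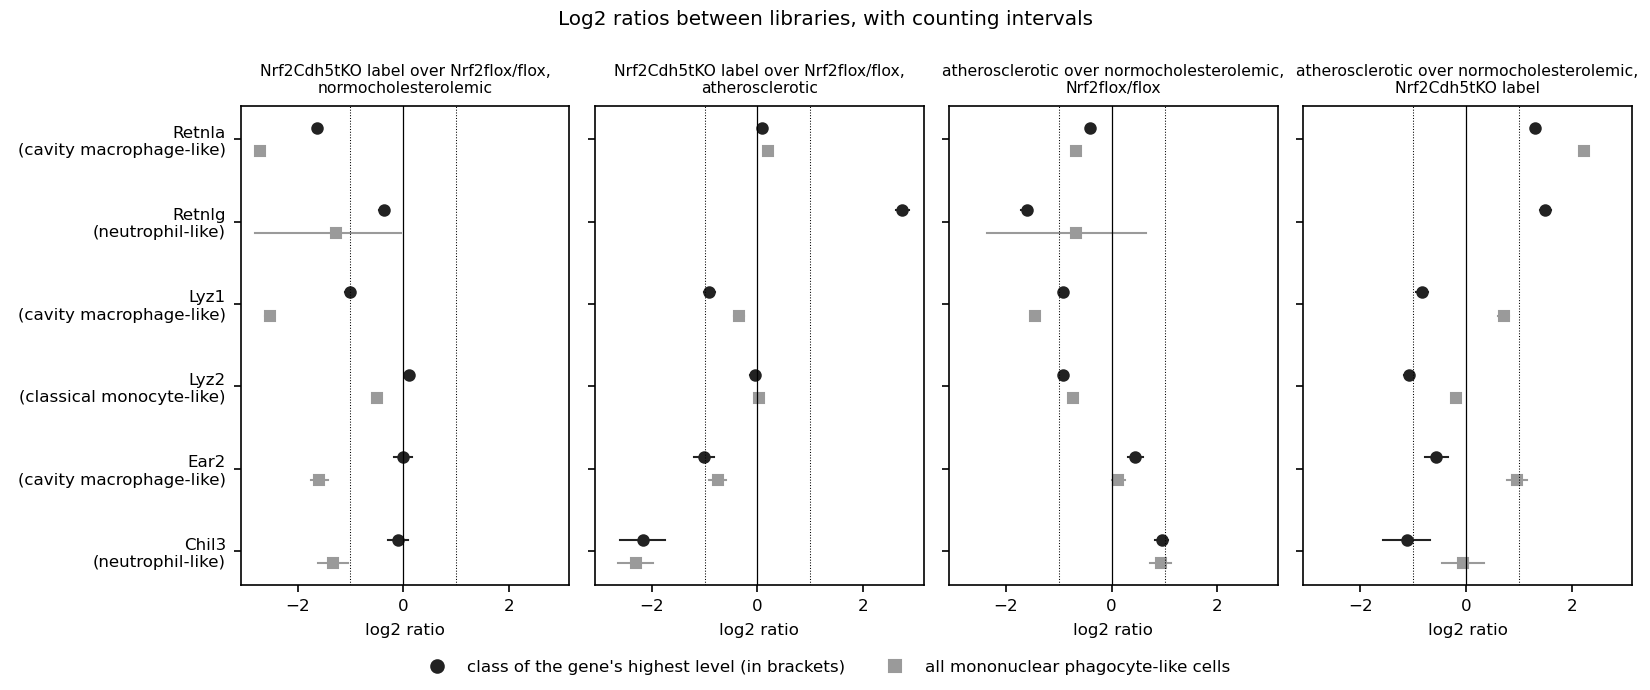
Log2 ratios between 2 libraries, with 95% counting intervals; circles give the class where the gene was highest, squares all mononuclear phagocyte-like cells with 50 or more UMIs over the pair, and dotted lines mark 2-fold. In phagocytes 5 of 6 squares lay left of −1 in the first panel. Between the last 2 panels the circles of Retnla, Retnlg, Ear2 and Chil3 changed side, and so did the squares of Retnla, Lyz1 and Chil3.

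The relatives of the 6 genes ranged from absent to abundant. Of the resistin family Retn, the adipocyte hormone, had 84 UMIs in all and Retnlb none. Of 5 other lysozyme-like genes none reached 20 UMIs. Of the ribonuclease family, Ear1 had 1 UMI and Ear6, Ear10 and Ear14 none, while Ang was highest in Lyve1+ cells (median 104 CPM), Rnase4 in fibroblast-like cells (764) and Rnase6 in cDC1-like cells (287). Rnase10 reached 0.935 CPM in fibroblast-like cells. Of the chitinase family Chil1 followed Retnlg, with a median of 221 CPM in neutrophil-like cells, Chil4 had no UMI, Chil5 had 31 in all, and the more distant Chid1 and Ctbs reached 27.3 CPM in fibroblast-like cells and 39.2 in AIR macrophage-like cells.

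The type 2 cytokines known to induce Retnla, interleukin-4 and interleukin-13, were barely read. Il4 had 83 UMIs and Il13 34 over all cells. Of other type 2 cytokines Il5 had 21 and Tslp 912, while the alarmin Il33 had 25836, highest in fibroblast-like cells at a median of 250 CPM. In phagocytes the leading type 2 response genes were Mrc1 (1107 CPM), Mgl2 (690) and Klf4 (566), while Arg1, a classic partner of Retnla in alternatively activated macrophages, was at 0.111. Between normocholesterolemic libraries 0 of 12 type 2 response genes with 50 or more UMIs were at least 2-fold higher under the label and 1 was lower, the chemokine gene Ccl17 with 0 against 5.74 CPM, with a median log2 ratio of 0.19 beside 0.22 for all genes. Of the monocyte granule and secreted list, 3 of 7 were at least 2-fold lower and none higher, where 2.29% of all genes were lower, with a median of −0.80: the antiprotease gene Slpi at −3.38 and the chemokine genes Ccl9 at −1.58 and Ccl6 at −1.11. Its most abundant genes in phagocytes were Ccl6 (1520 CPM), Wfdc17 (784) and Ccl9 (684). By median, Ccl6 (3610 CPM) and Ccl9 (1160) were highest in cavity macrophage-like cells and Slpi (1372) in neutrophil-like cells. With libraries summed, Slpi was at 1.90 CPM in cavity macrophage-like cells and 142 in all phagocytes. The cavity class was 133 of 840 phagocytes in the Nrf2flox/flox and 14 of 345 in the labelled normocholesterolemic library. The part of this makeup in the ratios of the list was not tested. Of the differentiation factors Cebpb (1729), Spi1 (421) and Irf8 (121) led, and Cebpe, which acts in granulocyte maturation, had 33.3 CPM in cavity macrophage-like cells, 207 in neutrophil-like cells and 0.163 in stroma.

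Each gene was last set beside the genes whose levels followed it across 34 combinations of class and library with at least 20 cells, as Pearson's r of log2(CPM + 10) over 13028 genes. The combinations share libraries and cell classes, so r is a description. Neutrophil-like cells entered only from the Nrf2flox/flox libraries, and monocyte-like cells only from the Nrf2flox/flox normocholesterolemic one. Cavity macrophage-like cells entered only from that library and the one labelled Nrf2Cdh5tKO atherosclerotic. For genes high in these classes, r thus rests on few combinations of high level. For Retnla the genes were Slc13a3 (r = 0.88), Ms4a8a (0.85) and Tbxas1 (0.84). For Lyz1 they were 4930455G09Rik (0.88), Dcstamp (0.86, a marker used for the gate) and Retnla itself (0.83). For Ear2 they were Gpr35 (0.93), Skint3 (0.89) and Spink2 (0.89). For Lyz2 they were Alox5ap (0.98), Cd14 (0.97) and Fcgr3 (0.97), a leukotriene pathway gene, a lipopolysaccharide co-receptor and an Fc receptor of myeloid cells. Retnlg was followed by Cxcr2 (also a gate marker), Il1f9 and Chil1, each at 0.98, and Chil3 by Arg2 (0.95), Trem3 (0.94) and Cd177 (0.94). Among the 6 themselves Lyz1 with Retnla (0.83) and Chil3 with Retnlg (0.77) were the closest pairs, the latter over units in which the split of neutrophils is averaged away.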

How the data were processed

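Single-cell 3′ RNA sequencing was measured in 4 libraries, 1 per condition. The agent injected into the atherosclerotic mice is not reported here. The UMI counts were deposited by the authors as unnormalised matrices made with Cell Ranger 6.1.2 on mm10, according to the submitters' processing notes. A barcode entered the work if it had 200 to 6000 detected genes and no more than 15% of its UMIs from mitochondrial transcripts. Cell classes were gated on marker lists: a cell's score was the mean over markers of log-scaled expression (UMIs per 10000) relative to the 90th percentile of positive cells, limited to 1, and a class needed a score of at least 0.3 and a lead of 0.1. The scoring rule was chosen after the counts were seen. The 6 genes and the lists were chosen with earlier results of these data known. Doublets were called with Scrublet and left in, with their removal as an alternative.

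UMIs were summed per class and library and given per 1000000 UMIs (CPM) with exact 95% Poisson intervals. Ratios between libraries have exact binomial intervals, and shares of cells exact Clopper-Pearson intervals after thinning to 2000 UMIs. All intervals cover counting error only. With 1 library per condition there was no test between conditions, and a difference was described against the share of genes, among those with at least 50 UMIs over the pair, whose log2 ratio was at least 1 in size. For those shares 1 UMI was added over the pair, split in proportion to depth. The script for ratios was tested on simulated data. Named besides the 6 genes were the 3 genes most correlated with each, relatives with at least 20 UMIs, and the 3 most abundant genes in phagocytes of each other list; further genes of the lists, of the splits of Lyve1+ and neutrophil-like cells and of small counts were named after their values were seen. Promoters came from RefSeq and gene positions from GENCODE vM21. Alternatives covered gates, filters, doublets, averaging and the reading of free RNA. Intervals used scipy 1.17.1, Scrublet ran in scanpy 1.11.5, alignments used Biopython 1.88 and figures matplotlib 3.10.9, on Python 3.11.15.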

Additional observations from a re-analysis of the deposited data

Results flagged for a closer look

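Retnla in proinflammatory macrophage-like cells moved in opposite directions between libraries. The log2 ratio of the Nrf2Cdh5tKO label over Nrf2flox/flox was −5.69 in normocholesterolemic and 1.43 in atherosclerotic libraries, and that of atherosclerotic over normocholesterolemic was −5.77 in Nrf2flox/flox and 1.34 under the Nrf2Cdh5tKO label. In the order of libraries given at the start, these ratios rest on 3106, 24, 5 and 53 UMIs. Of the 53, 22 were in a single cell. Outside the Nrf2flox/flox normocholesterolemic library the levels were 34.9, 32.9 and 88.4 CPM, beside 16.5, 23.3 and 58.9 in stroma. Without the cells of at least 1000 CPM of Retnla, 9 of them in the Nrf2flox/flox normocholesterolemic library, the ratios were −0.79, 0.66, −0.87 and 0.58. Their counting intervals were −1.50 to −0.13, −0.71 to 2.38, −2.53 to 0.40 and −0.24 to 1.41, so all but the first included equality. Retnlg in neutrophil-like cells also went opposite ways with diet, at −1.61 in Nrf2flox/flox and 1.5 under the label. With 1 library per condition, neither difference between the contrasts was tested, and the ratios share libraries.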

How the results depend on the processing

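No paired analysis was possible because each condition has 1 library. With a stricter gate (score 0.4, lead 0.2) the median levels in CPM were 20054 for Retnla, 12676 for Retnlg, 4668 for Lyz1, 26699 for Lyz2 and 1882 for Chil3, and the ratios to stroma 565 for Retnla, 214 for Lyz2 and 1899 for Ear2. Under it 1 gene passed 2-fold for the label among normocholesterolemic libraries and 2 for the diet in Nrf2flox/flox. Lyz2 in classical monocyte-like cells turned to −0.0096 for the label among normocholesterolemic libraries, and among atherosclerotic ones Retnla in proinflammatory cells turned to −0.22 and Lyz2 in phagocytes to −0.018. Averaging over cells gave levels of 19382 for Retnla, 12543 for Retnlg, 3259 for Lyz1 and 696 for Chil3, ratios to stroma of 238 (Retnla), 3242 (Retnlg), 587 (Lyz1), 153.1 (Lyz2), 328 (Ear2) and 444 (Chil3), and 2 genes past 2-fold for either diet comparison. It turned the label ratios among atherosclerotic libraries of Retnla to −0.21 in cavity, −0.097 in all phagocytes and −0.022 in Lyve1+ cells, of Lyz1 in phagocytes to 0.31 and of Lyz2 there to −0.041, and the diet ratio of Ear2 in Nrf2flox/flox phagocytes to −0.013. With a mitochondrial limit of 10%, and with no upper limit on genes, 1 gene passed 2-fold for the label among normocholesterolemic libraries, and the latter gave 153.4 for Lyz2 over stroma. The shares of all genes past 2-fold given above belong to the main processing. The counts of genes under these alternatives have no such share beside them and are not read as a result. Without Scrublet calls the ratios were 239.5 for Lyz2 and 1364 for Ear2. With lymphocytes as the reading they were 8254 for Retnlg, 150.6 for Lyz2 and 1323 for Ear2. With the 6 genes left out of the totals, levels were 19136 for Retnla and 24518 for Lyz2. In alternatives chosen after seeing the data, leaving out stromal cells with 5 or more UMIs gave 584 for Retnla, 7326 for Retnlg, 358 for Lyz2 and 1561 for Ear2, and leaving out Chil3-high neutrophil-like cells turned Retnlg to 0.42 for the label among normocholesterolemic libraries and to 0.058 for the diet in Nrf2flox/flox. The causes were not tested. Of 52 log2 ratios, the stricter gate moved 23 and reversed 3, averaging over cells moved 26 and reversed 6, and none changed direction without Scrublet calls, without cells under 1000 UMIs or with the stromal level subtracted. Small classes limit the precision: outside the Nrf2flox/flox normocholesterolemic library, cavity macrophage, neutrophil, classical and nonclassical monocyte-like cells numbered 6 to 28.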
